A study of Mus musculus with 18 samples.

Results

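The genes described are 10 mouse genes that shape, remove and renew mitochondria: the fusion genes Mfn1, Mfn2 and Opa1, the fission genes Dnm1l, Fis1 and Mff, the mitophagy genes Pink1 and Bnip3l, and the biogenesis genes Ppargc1a and Tfam. They were found by their symbols in the gene count tables, which held all 10 among 53819 gene entries. RNA-seq of total RNA had been made from isolated caput epididymis, the head of the duct in which sperm mature, of C57BL/6J mice. The 18 libraries fell into 6 groups of 3: control, 6% ethanol (EtOH) and 10% EtOH at 10 weeks, and the same 3 treatments after cessation (1 month in the title of the series). The labels used here do not state the route of ethanol, the length of treatment before withdrawal, or any age of the mice. Nothing in the labels says whether the 3 libraries of a group came from separate animals, so p-values measure only the spread between these libraries. The cessation groups have their own controls. Between the 10-week and the cessation set, time and any difference in handling cannot be told apart.

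Mitochondria fuse through the mitofusins Mfn1 and Mfn2 on the outer membrane and through Opa1 on the inner membrane. They divide when the dynamin Dnm1l (Drp1) is recruited from the cytosol by outer membrane adaptors, among them Mff and Fis1. The kinase Pink1 accumulates on depolarised mitochondria and starts their marking for autophagy, whereas Bnip3l (Nix) is itself an outer membrane receptor that binds the autophagy machinery. Ppargc1a (PGC-1alpha) is a transcriptional coactivator that raises the expression of nuclear genes for mitochondrial proteins, and Tfam packages mitochondrial DNA and starts its transcription. The caput epithelium is made mostly of principal cells, which secrete proteins into the lumen.

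Because Bnip3l, Mff, Dnm1l and Tfam varied together over the libraries (described further on), the 250 bases before the RefSeq gene start are shown for the 3 of these that have an entry, each read 5' to 3' on the gene's own strand in build GRCm38.p6. The Tfam stretch is chr10:71238045-71238294 on the minus strand, that of Mff is chr1:82724640-82724889 on the plus strand, and that of Dnm1l is chr16:16359032-16359281 on the minus strand. Where RefSeq gives several starts the most upstream was used. Capitals mark the ETS/GABP core CCGGAAG, a sequence bound by GABP, a factor of nuclear genes for mitochondrial proteins.
Tfam: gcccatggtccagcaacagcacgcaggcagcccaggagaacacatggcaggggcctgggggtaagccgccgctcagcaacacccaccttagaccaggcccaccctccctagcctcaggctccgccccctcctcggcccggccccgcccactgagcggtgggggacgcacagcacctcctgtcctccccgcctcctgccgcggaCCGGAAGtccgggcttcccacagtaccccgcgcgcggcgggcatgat
Mff: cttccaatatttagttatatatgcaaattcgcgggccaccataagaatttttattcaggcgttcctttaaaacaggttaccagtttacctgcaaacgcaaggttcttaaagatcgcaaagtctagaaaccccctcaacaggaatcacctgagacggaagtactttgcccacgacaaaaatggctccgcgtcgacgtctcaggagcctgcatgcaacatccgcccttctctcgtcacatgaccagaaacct
Dnm1l: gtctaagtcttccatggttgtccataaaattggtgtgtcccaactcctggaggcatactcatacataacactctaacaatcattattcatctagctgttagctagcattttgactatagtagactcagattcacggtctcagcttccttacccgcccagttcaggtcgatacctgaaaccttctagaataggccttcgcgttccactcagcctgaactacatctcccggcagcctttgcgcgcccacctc

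The GC content of these stretches was 72% for Tfam, 46% for Mff and 47.6% for Dnm1l. In the full windows of 300 bases (250 before and 50 after each start), 9 of the 10 genes had an entry, with 14 windows in all. CCGGAAG was found on either strand in a window of 4 of the 9 genes, Mfn1, Dnm1l, Fis1 and Tfam, beside 9.93% of all 27025 RefSeq genes (8.86% of all 32851 windows). In Tfam its first base lay 47 bases before the start and in Mfn1 44 bases before it. In Dnm1l the match was on the minus strand of a window at another, downstream start, at position 13 counted from that start. The NRF1 core GCGCATGCG was found in 1 gene, Opa1, 59 bases before its start, with its reverse complement overlapping it by all but 1 base, beside 1.95% of all genes (1.75% of windows). The oestrogen-related receptor core CAAGGTCA (1.56% of all windows) and the cyclic AMP response element TGACGTCA (1.79%) were in none of the 14 windows. These matches describe letters in a window only.

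Reads assigned to genes ranged from 15599991 to 21067237 in the 9 libraries of 10 weeks and from 10719320 to 17197177 in the 9 of cessation. Of the 53819 entries 18618 passed the filter on low counts and were tested, all 10 genes among them. Counts per library ran from 55 to 191 for Ppargc1a, from 357 to 648 for Tfam and from 581 upwards for the other 8. Levels are given as CPM, a gene's counts scaled to a common library total, after TMM scaling, edgeR's correction for library composition. Summed CPM of 9 principal cell markers lay between 60815 and 113596 in 16 libraries, but at 33358 in control cessation replicate 3 and 34008 in 6% EtOH cessation replicate 1. Those 2 libraries also had the highest summed endothelial markers of the 18, 246 and 247 CPM against at most 156 CPM elsewhere, the highest germ cell and sperm markers and the highest basal cell markers. In bulk tissue fewer cells of a type and less RNA per cell cannot be told apart. Principal cell markers, which define the caput, were abundant in every library. Skeletal muscle markers summed to at most 9.75 CPM and adipocyte markers to at most 26.7 CPM. In 2 libraries an identifier was irregular: the third 10% EtOH library of 10 weeks has an identifier of another form than its group mates, and the label and the table header of 6% EtOH cessation replicate 1 give different numbers. Leaving out either library is among the alternatives.

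Divided by the length of the longest annotated transcript, Pink1 and Fis1 had the highest levels of the 10 genes, with means of 152 and 150 TPM over the 18 libraries (SD 17.2 and 22.9; TPM scales the length-corrected counts of a library to a fixed total). Pink1 lay above Fis1 in 12 of 18 libraries, so these neighbours were not separated. Bnip3l followed with 91.9 TPM, then Dnm1l with 61.9 and Mff with 60.8 TPM, which were not separated either (12 of 18). The fusion genes stood lower, at 30.8 TPM for Mfn2, 27.2 for Opa1 and 25.9 for Mfn1. Tfam had 14.7 TPM and Ppargc1a 2.27 TPM, the lowest of the 10. With the median transcript length in place of the longest, Tfam moved to 51.4 TPM and Mfn1 to 51.9 TPM, above Mfn2 and Opa1, so the order in the middle depends on which transcript is counted. In TMM-normalised CPM, the scale of all levels that follow, the coefficient of variation over the 18 libraries ran from 6.94% for Mfn1 (highest over lowest 1.28) to 34.4% for Ppargc1a (3.28).

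At 10 weeks the 3 fusion genes differed in pattern. Mfn1 lay at 57.7, 58.6 and 58.8 CPM in controls, 59.8, 59.5 and 60.5 CPM with 6% EtOH and 57.7, 59.4 and 61.3 CPM with 10% EtOH, so it hardly varied. Opa1 varied more than Mfn1, with both ethanol groups overlapping the controls. It was at 85.9, 78.9 and 89.0 CPM in controls, 88.1, 86.7 and 80.4 CPM with 6% and 85.5, 82.3 and 88.6 CPM with 10%. Mfn2 stood at 79.9, 76.6 and 74.5 CPM in controls, 66.7, 65.2 and 75.4 CPM with 6%, and 69.2, 58.7 and 53.3 CPM with 10%. Every 10% library was below every control for Mfn2, while the 6% group overlapped the controls.

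Among the fission genes, Dnm1l, the dynamin that cuts the organelle, was at 102, 109 and 103 CPM in controls, 112, 113 and 111 CPM with 6% and 131, 97.8 and 179.7 CPM with 10%. Its adaptor Mff was at 55.7, 56.3 and 48.5 CPM in controls, 59.1, 59.1 and 56.7 CPM with 6%, and 64.7, 64.4 and 90.1 CPM with 10%. Fis1 was at 79.0, 65.0 and 69.3 CPM in controls, 76.5, 74.9 and 78.5 CPM with 6% and 69.3, 66.3 and 54.5 CPM with 10%. Mff was above every control in both ethanol groups, Dnm1l only with 6%, and Fis1 overlapped the controls in both. For Dnm1l and Mff the third 10% library was far above the other 2.

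Of the mitophagy genes, Pink1 was at 154, 179 and 155 CPM in controls, 197, 204 and 229 CPM with 6% and 203, 204 and 199 CPM with 10%. Bnip3l was at 122, 128 and 107 CPM in controls, 147, 142 and 149 CPM with 6%, and 159, 148 and 223 CPM with 10%. Both were higher in all 6 ethanol libraries than in any control of 10 weeks, as was the fission gene Mff. Of all tested genes 18.7% did not overlap the controls with 6% and 30.7% with 10%. The share for both doses at once was not counted. Of the biogenesis genes, Tfam was at 26.3, 28.4 and 23.7 CPM in controls, 27.8, 35.8 and 30.2 CPM with 6% and 31.7, 30.7 and 38.2 CPM with 10%. Ppargc1a was at 6.42, 5.01 and 8.73 CPM in controls, 5.42, 5.81 and 4.74 CPM with 6% and 5.92, 4.70 and 6.08 CPM with 10%. Tfam with 10% EtOH did not overlap the controls, and Ppargc1a overlapped them at both doses.

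**Figure D1:**
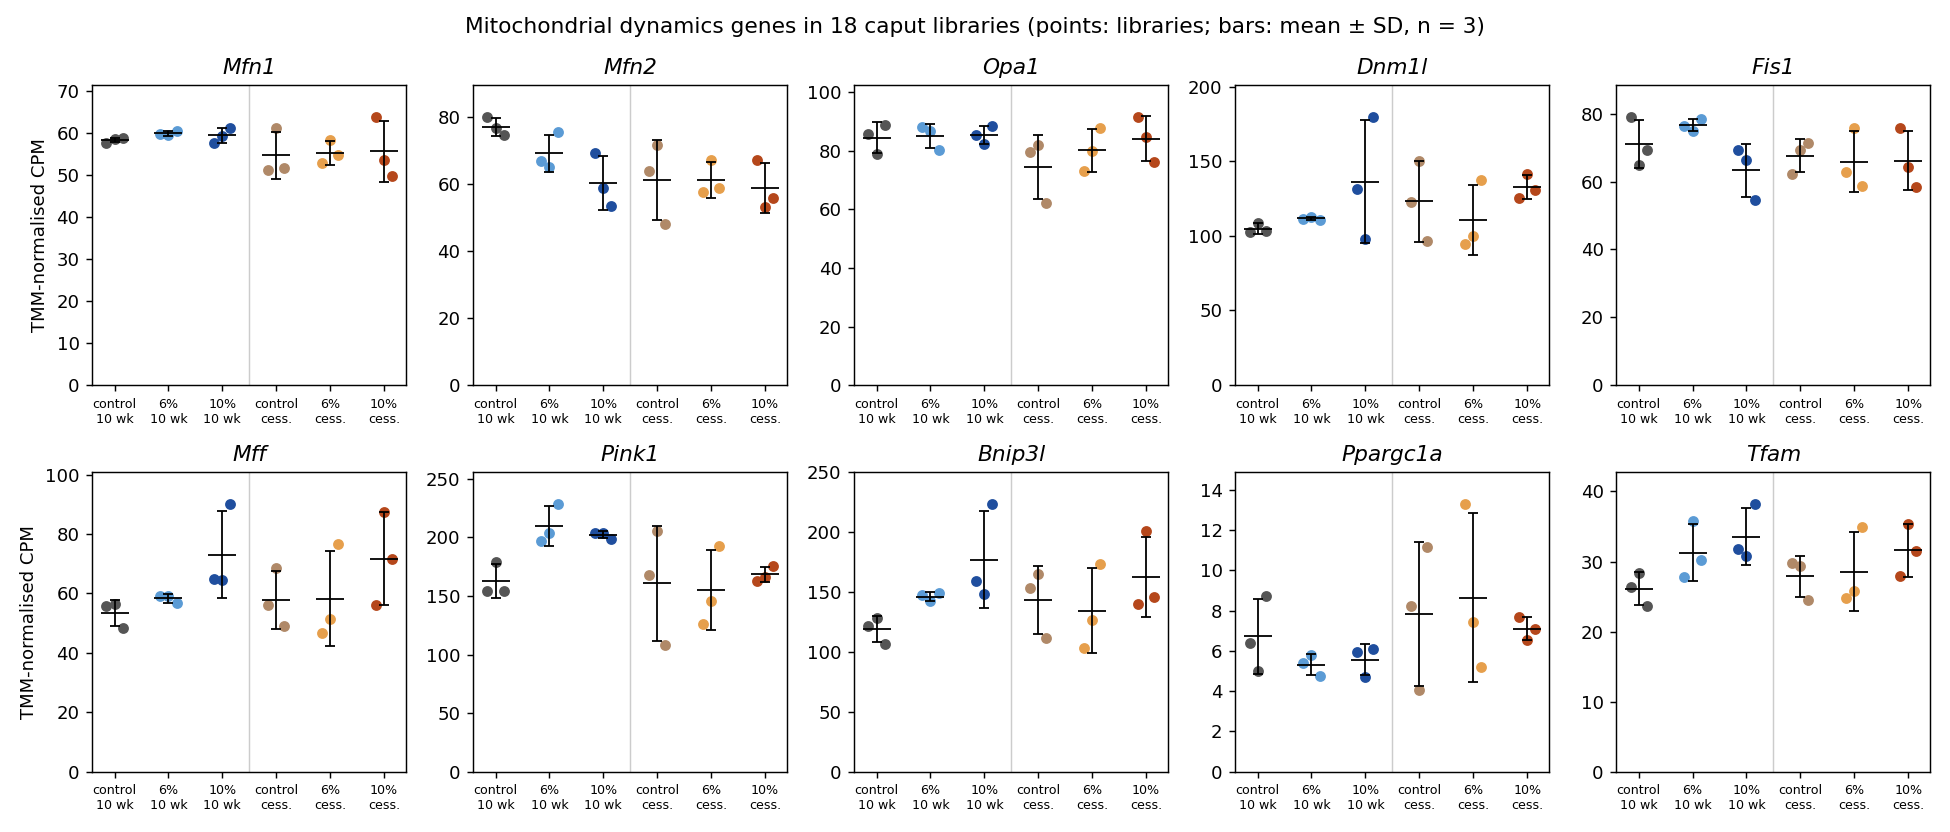
TMM-normalised CPM (vertical axis, from 0) of the 10 genes in the 6 groups (horizontal axis), 1 point per library, with black bars for mean ± SD (n = 3). At 10 weeks Mff, Pink1 and Bnip3l were higher in all 6 ethanol libraries than in the 3 controls, and after cessation the groups of every gene overlapped. The share of all genes that separated both doses from the controls was not counted.

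None of these differences passed the test. For 10% EtOH at 10 weeks edgeR's quasi-likelihood test over all 18 libraries called 0 of the 10 genes and 0% of the 18618 genes tested, with 2501 genes at an unadjusted p under 0.05. DESeq2 called 74 genes and limma voom 0, with none of the 10 in either. The largest difference was that of Bnip3l, 0.58 ± 0.20 (SE) on the log2 scale and a 95% interval from 0.18 to 0.97 (edgeR adjusted p = 0.299). Mff differed by 0.45 ± 0.19 (adjusted p = 0.33), Dnm1l by 0.38 ± 0.19 (adjusted p = 0.396) and Tfam by 0.36 ± 0.16 (adjusted p = 0.331). Mfn2 lay lower, at -0.35 ± 0.14 (adjusted p = 0.322), and Pink1 higher, at 0.31 ± 0.18 (adjusted p = 0.463). The other 4 had adjusted p of 0.596 or more: Mfn1 at 0.03 ± 0.11, Opa1 at 0.02 ± 0.12, Fis1 at -0.17 ± 0.13 and Ppargc1a at -0.27 ± 0.34. For Mfn1 the 95% interval, from -0.19 to 0.24, bounds any difference more closely than for the others, and for Ppargc1a it runs from -0.94 to 0.40. The median of the 10 was 0.17, with 7 above 0, against a median of -0.01 over all genes tested.

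For 6% EtOH at 10 weeks the same test called 0 of the 10 and 0% of all genes, with 440 genes at an unadjusted p under 0.05, and DESeq2 and voom called none. Pink1 had the largest difference, 0.37 ± 0.18, followed in size by Ppargc1a at -0.33 ± 0.34, Bnip3l at 0.30 ± 0.20 and Tfam at 0.26 ± 0.16. The remaining 6 lay between -0.16 (Mfn2) and 0.12 (Mff). All 10 had an adjusted p of 1. The groups did not overlap for 5 of the 10 with 6% EtOH (Mfn1, Dnm1l, Mff, Pink1 and Bnip3l, all higher), while 18.7% of all tested genes did not overlap. With 10% EtOH it was 5 of the 10 (Mff, Pink1, Bnip3l and Tfam higher, Mfn2 lower), while 30.7% of all tested genes did not overlap. Both comparisons share the 3 control libraries, so the counts are not independent of each other.

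The cessation libraries varied more than those of 10 weeks. The biological coefficient of variation within a group was 11.6%, 14.5% and 23.0% for control, 6% and 10% at 10 weeks and 35.1%, 29.9% and 27.7% after cessation. A fit to only the 9 libraries of 10 weeks therefore used a smaller spread. In it 2 of the 10 genes passed with 10% EtOH, where 6.17% of the 17154 genes tested passed. Bnip3l rose by 0.59 ± 0.14 (edgeR adjusted p = 0.0369) and Pink1 by 0.32 ± 0.09 (adjusted p = 0.0455). Mff, at 0.46 ± 0.13, had an adjusted p of 0.0526, Mfn2, at -0.34 ± 0.10, one of 0.0599, Tfam, at 0.37 ± 0.13, one of 0.0943, and Dnm1l, at 0.39 ± 0.17, one of 0.175. With 6% EtOH 0 of the 10 and 0% of all genes passed in this fit, and Pink1 had the smallest adjusted p of the 10 (0.37 ± 0.09, edgeR adjusted p = 0.358).

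Which genes passed in the 9-library fit depended on single libraries. The number of all genes that passed also changed with the library left out (range in the last section). The counts below are therefore not read as particular to the 10. Without any one of the 3 controls, or without 6% replicate 2 or 3, 0 of the 10 passed. Without 6% replicate 1 only Bnip3l passed. Leaving out a 10% library instead gave Mfn2, Mff and Bnip3l without replicate 1, and Dnm1l, Mff and Bnip3l without replicate 2. Without 10% replicate 3, the library highest in Dnm1l, Mff, Bnip3l and Tfam, Pink1 passed at 0.32 ± 0.08 (adjusted p = 0.0351) and Bnip3l at 0.37 ± 0.08 (adjusted p = 0.0149). Dnm1l was then at 0.13 ± 0.10, Mff at 0.27 ± 0.08 (adjusted p = 0.077) and Tfam at 0.25. The sizes for Dnm1l, Mff, Bnip3l and Tfam thus rested on that library more than the size for Pink1 did.

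The members differ in base composition: the longest transcript is 40.9% GC for Dnm1l and 41.9% for Bnip3l, but 53.1% for Mfn2, 54.4% for Fis1 and 59.0% for Pink1. With the dependence of each library on transcript length and GC content removed (all 18 libraries), the 10% EtOH difference at 10 weeks was 0.10 for Dnm1l, 0.35 for Bnip3l and -0.20 for Mfn2, each smaller in size than before. That of Pink1 became larger, 0.51. Mff, at 0.39, and Tfam, at 0.31, moved little, and 0 of the 10 passed. In the 9 libraries with trends removed Pink1 (0.52 ± 0.09, adjusted p = 0.0174) and Bnip3l (0.35 ± 0.09, adjusted p = 0.0485) passed.

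**Figure D2:**
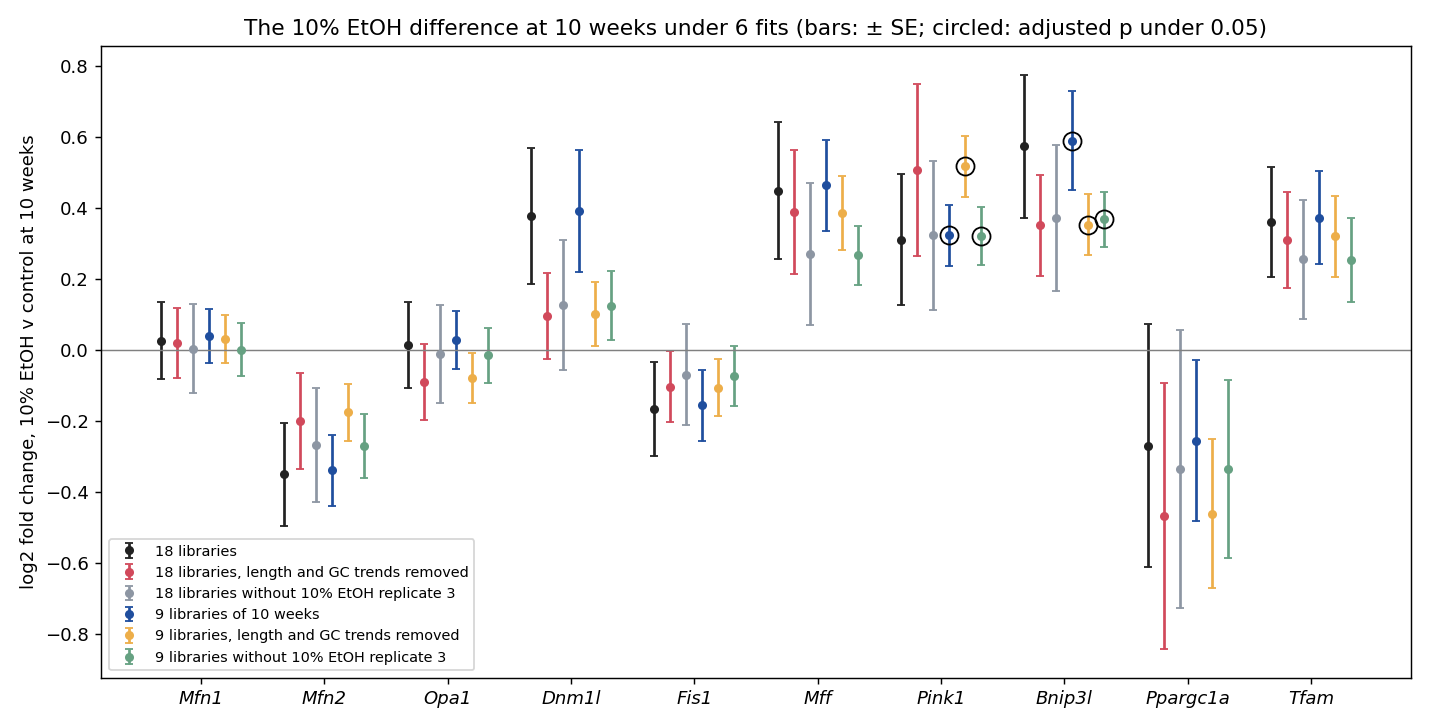
Log2 fold change of 10% EtOH against control at 10 weeks (vertical axis) for each gene (horizontal axis) under 6 fits, with bars of ± SE and circles where the adjusted p was under 0.05. Circles stand only on Pink1 and Bnip3l, and the Dnm1l points are at 0.38 and 0.39 with all libraries but between 0.10 and 0.13 without the third 10% library or with trends removed.

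Summed principal cell markers were higher in every ethanol library of 10 weeks than in its controls, from 67219 to 74178 CPM in controls, 77249 to 93146 CPM with 6% and 89773 to 113596 CPM with 10% EtOH, with the third 10% library highest. So were macrophage markers, from 147 to 164 CPM in controls, 187 to 196 CPM with 6% and 188 to 286 CPM with 10%. The sum of principal cell markers weighs the most abundant markers most. As the mean log2 level of the 9, each centred over the 18 libraries, controls were at -0.299 to 0.121. The 6% group, at 0.099 to 0.362, overlapped them, and the 10% group, at 0.403 to 0.957, did not. The part of both marker lists in the values of Pink1, Bnip3l, Mff and Tfam at 10 weeks was not tested.

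After cessation no member stood apart in either ethanol group. Pink1 was at 168, 205 and 108 CPM in cessation controls, 126, 146 and 193 CPM after 6% and 163, 167 and 176 CPM after 10%. Bnip3l was at 153, 165 and 112 CPM in controls, 103, 127 and 173 CPM after 6%, and 140.2, 201 and 146 CPM after 10%. Mff was at 56.0, 68.5 and 49.0 CPM in controls, 46.8, 51.3 and 76.5 CPM after 6% and 56.2, 87.3 and 71.5 CPM after 10%. The groups overlapped for all 3, and for Pink1 the 10% libraries lay inside the range of their controls.

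The fusion genes and Dnm1l also overlapped. Mfn2, lower with 10% EtOH at 10 weeks, was at 63.8, 71.5 and 48.0 CPM in cessation controls, 57.5, 67.3 and 58.8 CPM after 6% and 67.1, 53.0 and 55.9 CPM after 10%. Opa1 lay between 62.1 and 91.6 CPM and Mfn1 between 49.7 and 63.8 CPM over the 9 libraries. Dnm1l was at 123, 151 and 96.5 CPM in controls, 94.8, 99.7 and 138 CPM after 6% and 126, 141 and 131 CPM after 10%. Tfam lay between 24.5 and 35.4 CPM, Fis1 between 58.5 and 75.9 CPM and Ppargc1a between 4.05 and 13.3 CPM. Ppargc1a varied most, and its 2 highest libraries, at 11.2 and 13.3 CPM, were the 2 with the lowest principal cell markers.

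For 6% EtOH after cessation edgeR called 0 of the 10 genes and 0% of all genes (301 at an unadjusted p under 0.05), and the differences ran from -0.16 ± 0.19 for Dnm1l to 0.15 ± 0.34 for Ppargc1a. For 10% EtOH after cessation it again called 0 of the 10 and 0% of all genes (1240 at an unadjusted p under 0.05), with Mff farthest from 0 at 0.31 ± 0.19 (adjusted p = 0.785) and Bnip3l at 0.18 ± 0.20. DESeq2 called 1 and 0 genes in these comparisons, voom 0 in both, and none of the 10. No gene of the 10 had groups without overlap, while 4.01% of all tested genes had them with 6% and 6.46% with 10%. The 95% interval of the Bnip3l difference after 10% ran from -0.21 to 0.58 and that of Mff from -0.07 to 0.69, so these intervals hold values from below 0 to about those seen at 10 weeks.

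Whether the ethanol differences changed between 10 weeks and cessation was tested directly as an interaction. For 6% EtOH edgeR called 0 of the 10 and 0% of all genes (561 at an unadjusted p under 0.05), and for 10% EtOH likewise 0 of the 10 and 0% (1386). DESeq2 called 0 and 2 genes, voom 0 and 0. The interaction of Bnip3l was -0.39 ± 0.28 for either dose (adjusted p = 1 for 6% and 0.76 for 10%). Pink1 had -0.42 ± 0.26 for 6% and -0.24 ± 0.26 for 10%, and Mfn2 had 0.29 ± 0.20 for 10%. The difference between the times was thus not shown for any of the 10 genes. Over all 6 groups at once edgeR called 0.295% of the genes, 55, and 0 of the 10, with adjusted p from 0.305 for Mfn2 to 0.828 for Mfn1.

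**Figure D3:**
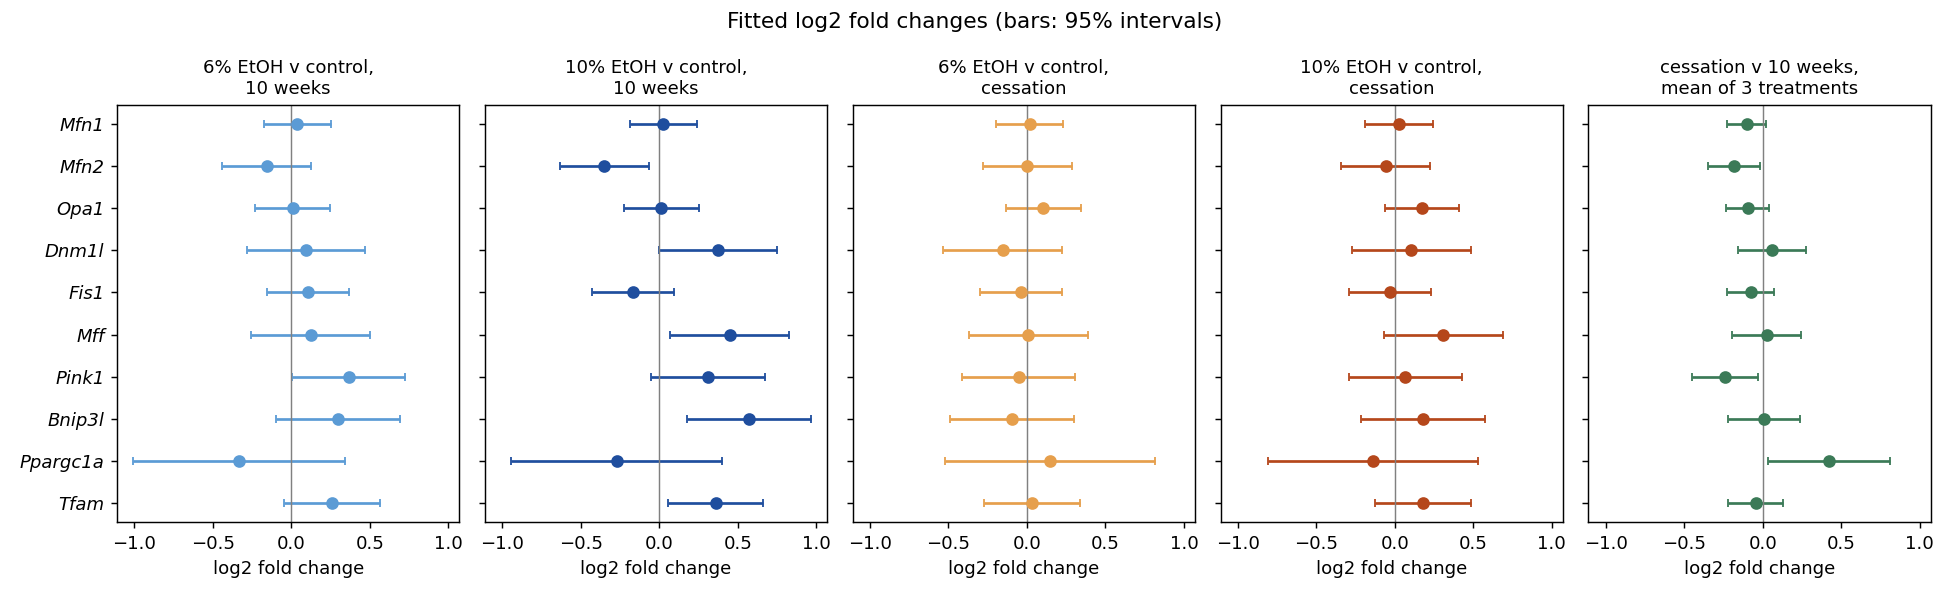
Log2 fold changes (horizontal axis) of the 10 genes (rows) in 4 ethanol comparisons and between the times, with bars for 95% intervals. The points spread farthest at 10 weeks with 10% EtOH, from -0.35 for Mfn2 to 0.58 for Bnip3l, and none passed the adjusted test.

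Between the times, taken as the mean of the 3 treatments, 17.9% of all genes passed but 0 of the 10. Ppargc1a was higher after cessation by 0.42 ± 0.20 (edgeR adjusted p = 0.131). Pink1 was lower by 0.24 ± 0.11 on the log2 scale (log2 fold change -0.24, adjusted p = 0.113) and Mfn2 had -0.18 ± 0.08 (adjusted p = 0.122). The other 7 lay between -0.10 and 0.06. No gene of the 10 separated the 9 libraries of one time from the 9 of the other, as 0.451% of all genes did. Without control cessation replicate 2, the cessation library with the most principal cell markers, 3 of the 10 passed: Mfn2 at -0.23 (adjusted p = 0.0418), Pink1 at -0.32 (adjusted p = 0.0206) and Ppargc1a at 0.52 (adjusted p = 0.0296). Without 6% cessation replicate 3 Pink1 alone passed (-0.31, adjusted p = 0.046). The number of all genes that passed between the times also changed with the library left out (range in the last section). These counts are therefore not read as particular to the 10. Without both libraries of lowest principal cell markers the same 3 genes were at -0.14 (Mfn2), -0.14 (Pink1) and 0.14 (Ppargc1a), and none of the 10 passed.

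The wider pathway was followed in 8 lists of nuclear genes (fusion and inner membrane proteases, fission, mitophagy, biogenesis regulators, mitochondrial DNA maintenance, cristae and outer membrane assembly, transport, and mitochondrial mass), which hold 136 genes with the 10, 133 of them tested. In the 4 ethanol comparisons and both interactions 0 of the 133 passed. With 10% EtOH at 10 weeks the 6 of smallest p outside the 10 were Yme1l1, an inner membrane protease that cleaves Opa1 (0.79 ± 0.25), Ulk1, a kinase that starts autophagy (-0.41 ± 0.14), Inf2, an actin nucleator in fission (-0.74 ± 0.26), Slc25a46, an outer membrane protein of mitochondrial dynamics (0.89 ± 0.31), Mtx2, of the outer membrane import machinery (0.47 ± 0.17), and Lonp1, the matrix protease that degrades Tfam (-0.33 ± 0.12). All 6 had an adjusted p of 0.299. Yme1l1 was at 106, 111 and 117 CPM in controls, 140.0, 147 and 128 CPM with 6% and 162, 153 and 259.7 CPM with 10%, highest in the third 10% library like Bnip3l. With 6% EtOH at 10 weeks they were Gabarapl2 (0.31), Ssbp1 (0.25), Uqcrc2 (0.23), Ulk1 (-0.28), Timm23 (0.25) and Micos10 (0.26), all with an adjusted p of 1. With 6% EtOH at 10 weeks 78 of the 133 lay above 0, beside 48.9% of all tested genes. By list this was 1 of 18 biogenesis regulators (median -0.10), 9 of 11 cristae genes, 11 of 15 fusion genes and 20 of 30 mitophagy genes. The other lists had 8 of 14 (fission), 16 of 25 (mitochondrial DNA), 4 of 7 (transport) and 9 of 13 (mass). With 10% EtOH at 10 weeks 68 of the 133 lay above 0, beside 48.8% of all tested genes. There fission had 4 of 14, mitophagy 14 of 30, fusion 9 of 15 and cristae 7 of 11. The biogenesis regulators were above 0 in 7 of 18 with 10% EtOH at 10 weeks (median -0.03) and in 12 of 18 with 6% after cessation (median 0.04), so their direction was not shared by these comparisons.

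After cessation the 6 with 6% EtOH were Prkaa2 (0.53), Nipsnap2 (0.23), Esrrg (0.35), Slc25a33 (-0.42), Micos10 (-0.20) and Rhot1 (-0.18), each with an adjusted p of 1. With 10% EtOH they were the autophagy adaptor Sqstm1 (-0.54 ± 0.19), the GABP subunit Gabpb1 (-0.47 ± 0.17), the PGC-1 family member Pprc1 (-0.39 ± 0.15), the import receptor Tomm20 (0.36 ± 0.15), Rnaseh1 (-0.42 ± 0.18) and Dnm2 (-0.27 ± 0.12), with an adjusted p of 0.744 each. In the interaction of 10% EtOH, Gabpb1 (-0.76 ± 0.24) and the fission adaptor Mief1 (0.49 ± 0.16) had the smallest p (adjusted p = 0.645 for both), followed by Tbk1 (-0.55), Primpol (-0.71), Mtfr1l (0.41) and Optn (-0.48). In that of 6% EtOH they were Prkaa2 (0.90), Micos10 (-0.45), Uqcrc2 (-0.37), Gabarapl2 (-0.39), Ssbp1 (-0.32) and Tomm7 (-0.37). None of these passed.

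Direct partners of the 10 did not pass in the ethanol comparisons either. Bnip3, the paralog of Bnip3l, was at 15.04 ± 0.752 CPM (SD, n = 3) in controls of 10 weeks, 16.9 ± 1.21 CPM with 6% and 19.0 ± 1.42 CPM with 10%. With 10% EtOH at 10 weeks Bnip3 differed by 0.34 ± 0.17, the Opa1 protease Oma1 by 0.25 ± 0.14, the mitochondrial transcription factor Tfb2m by 0.34 ± 0.21 and the mitochondrial RNA polymerase Polrmt by -0.18 ± 0.16. The fission adaptors Mief1 and Mief2 differed by -0.28 ± 0.12 and -0.03 ± 0.20, and the PGC-1 family members Pprc1 and Ppargc1b by -0.34 ± 0.15 and -0.38 ± 0.28. Their adjusted p were 0.322 or more. Of these 8 and Yme1l1, the 10% group did not overlap the controls for 6 (Yme1l1, Bnip3 and Tfb2m higher, Mief1, Pprc1 and Ppargc1b lower), beside the 30.7% of all tested genes given above.

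Between the times 1342 of the 18618 genes tested passed with lower levels after cessation. Of the 133 nuclear pathway genes tested, 7 did. They were the inner membrane protease gene Afg3l2 (-0.29, edgeR adjusted p = 0.0212), the mitochondrial deubiquitinase gene Usp30 (-0.43, adjusted p = 0.0237), the channel gene Vdac2 (-0.43, adjusted p = 0.0262), the autophagy genes Gabarapl2 (-0.26) and Bcl2l13 (-0.26), Stoml2 (-0.26) and Ppard (-0.31). Summed immediate early genes, which cells switch on within minutes of a stimulus, were at 153 to 285 CPM at 10 weeks and 457 to 1871 CPM after cessation, and their part in these differences was not tested. Without both libraries of lowest principal cell markers, or without 10% cessation replicate 3 alone, 0 of the 7 passed.

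Messenger RNAs encoded by mitochondrial DNA, whose transcription Tfam starts, were followed as a list of their own of 12 genes. Their share of all assigned reads was 0.88% to 1.34% in controls of 10 weeks, 0.997% to 1.41% with 6%, 1.47% to 2.76% with 10%, and 1.08% to 4.81% over the cessation libraries. The 12 genes were counted very unevenly. Mean log2 CPM was 12.7 for mt-Co1 and 11.9 for mt-Cytb, but 3.37 for mt-Co2, 2.72 for mt-Co3, 1.90 for mt-Atp6 and 0.592 for mt-Nd3. The share thus says little about these last, and whether their reads were lost in counting was not tested. Between the times 10 of 12 passed, beside 17.9% of all genes tested, all higher after cessation, with a median of 0.95 over the 12. With limma voom 2 of these 10 passed, and without both libraries of lowest principal cell markers, or without 10% cessation replicate 3 alone, 0 did. With 10% EtOH at 10 weeks all 12 lay above 0, at a median of 1.05, and with 6% 11 of 12 did (median 0.25). After cessation 0 of 12 lay above 0 with 6% (median -0.23) and 11 of 12 with 10% (median 0.52). Of all tested genes 47.9% to 48.9% lay above 0 in these 4 comparisons. None of the 12 passed in any of them. Tfam itself differed by -0.04 ± 0.09 between the times.

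Among themselves the 10 genes formed a pattern that did not follow the functional classes. Of 45 pairs, 27 had a Pearson correlation of log2 CPM above 0 over the 18 libraries, and 7 had one of at least 0.7 in size. Of those 7 pairs 6 were the pairs among Bnip3l, Mff, Dnm1l and Tfam, 1 gene of mitophagy, 2 of fission and 1 of biogenesis. These 4 genes were picked after the correlations had been seen, so the values are given as a description with no test, as are those of the other pairs. Pearson r ran from 0.744 (Dnm1l with Tfam) to 0.935 (Mff with Bnip3l) and Spearman rho from 0.723 to 0.887. Without the 2 libraries farthest from the median r ran from 0.739 to 0.873, within 10 weeks from 0.703 to 0.961, within cessation from 0.846 to 0.952, and for deviations from group means from 0.746 to 0.934. A small share of other genes was as close. Of 13276 genes compared, 21 (0.158%) followed Bnip3l at least as closely as Mff did, and 231 (1.74%) at least as closely as Dnm1l did. For Dnm1l, 782 (5.89%) followed it at least as closely as Tfam did.

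The closest inverse pair was Pink1 and Ppargc1a, with r = -0.878 and rho = -0.866 over 18 libraries. Without the 2 farthest libraries r was -0.779, within 10 weeks -0.73, within cessation -0.896 and for deviations from group means -0.873. Of the 13276 genes, 28 (0.211%) went against Pink1 at least as closely. Fis1, though a fission gene, went against Mff (r = -0.573, rho = -0.42), and this fell to -0.35 without the 2 farthest libraries. The 2 mitofusins had r = 0.538 over all libraries, but -0.633 within 10 weeks and 0.726 within cessation. Mfn2 went with Fis1 at r = 0.565 (0.738 without the 2 farthest libraries, 0.335 within cessation).

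**Figure D4:**
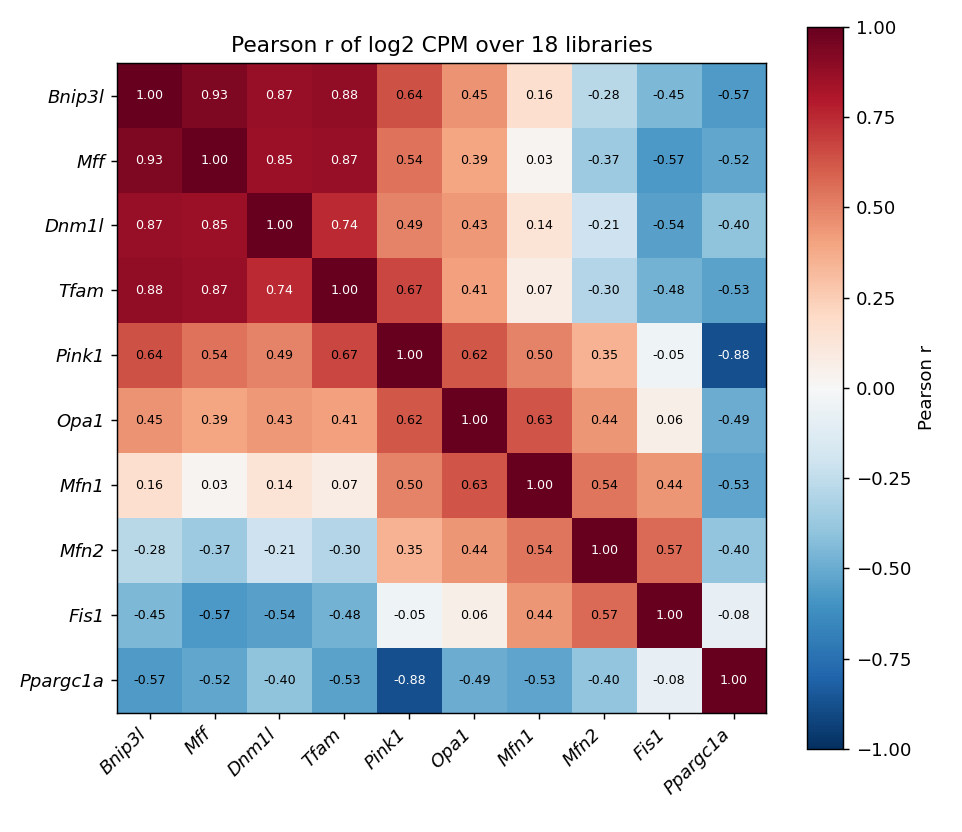
Pearson r of log2 CPM over the 18 libraries for all 45 pairs of the 10 genes (rows and columns, colour scale from -1 to 1). The red block at the upper left holds Bnip3l, Mff, Dnm1l and Tfam, and the darkest blue cell is Pink1 with Ppargc1a at -0.88.

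Over all 18 libraries, Pink1 had the highest and Ppargc1a the lowest correlation of the 10 with the summed principal cell markers, an order that did not hold within 10 weeks. For Pink1 r was 0.904 and rho 0.845 over 18 libraries (permutation p = 1e-05, the smallest these permutations can give, and 3e-05, adjusted over 20 relations 0.0002 and 0.0006). Without the 2 farthest libraries it was 0.771, within 10 weeks 0.785 and within cessation 0.907. For Ppargc1a r was -0.846 and rho -0.754 (permutation p = 4e-05 and 0.00043, adjusted 0.0004 and 0.00287), with -0.626 without the 2 farthest libraries, -0.44 within 10 weeks and -0.911 within cessation. Opa1 had r = 0.75 (0.285 without the 2 farthest libraries), Bnip3l 0.721 and Tfam 0.705, while Fis1 had -0.0442 and Mfn2 0.307. Within 10 weeks r was 0.92 for Tfam, 0.898 for Bnip3l and 0.835 for Mff, all above Pink1, and -0.82 for Mfn2, below Ppargc1a. Within cessation Mfn2 went with the markers (0.542). For deviations from group means r was 0.87 for Pink1 and -0.84 for Ppargc1a. The permutations shuffled all 18 libraries without regard to group, so their p-values also take in differences between the groups.

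Over all 18 libraries, Fis1 and Mfn2 had the strongest relations of the 10 with the share of mitochondrially encoded mRNA, both inverse. This order did not hold within either time. Within 10 weeks r was 0.82 for Mff and 0.80 for Dnm1l, both larger in size than for Fis1. Within cessation it was -0.718 for Mfn1 and 0.69 for Mff, both larger in size than for Mfn2. Mfn1 had -0.674 over 18 libraries but 0.482 within 10 weeks. For Fis1 r was -0.742 and rho -0.74 (permutation p = 0.00048 and 0.00058, adjusted 0.00268 and 0.0029), -0.733 without the 2 farthest libraries, -0.722 within 10 weeks and -0.842 within cessation. For Mfn2 r was -0.74 and rho -0.796 (permutation p = 0.00059 and 0.00022, adjusted 0.00268 and 0.0022), -0.683 without the 2 farthest libraries, -0.87 within 10 weeks and -0.537 within cessation. Tfam had r = 0.472 over 18 libraries (adjusted p = 0.0653 by permutation), 0.661 within 10 weeks, 0.714 within cessation and 0.616 for deviations from group means. Pink1 had -0.0803 over 18 libraries. For deviations from group means r was -0.809 for Fis1 and -0.555 for Mfn2. The permutations again disregarded the groups. These measures share libraries and their scaling with the levels of the genes.

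**Figure D5:**
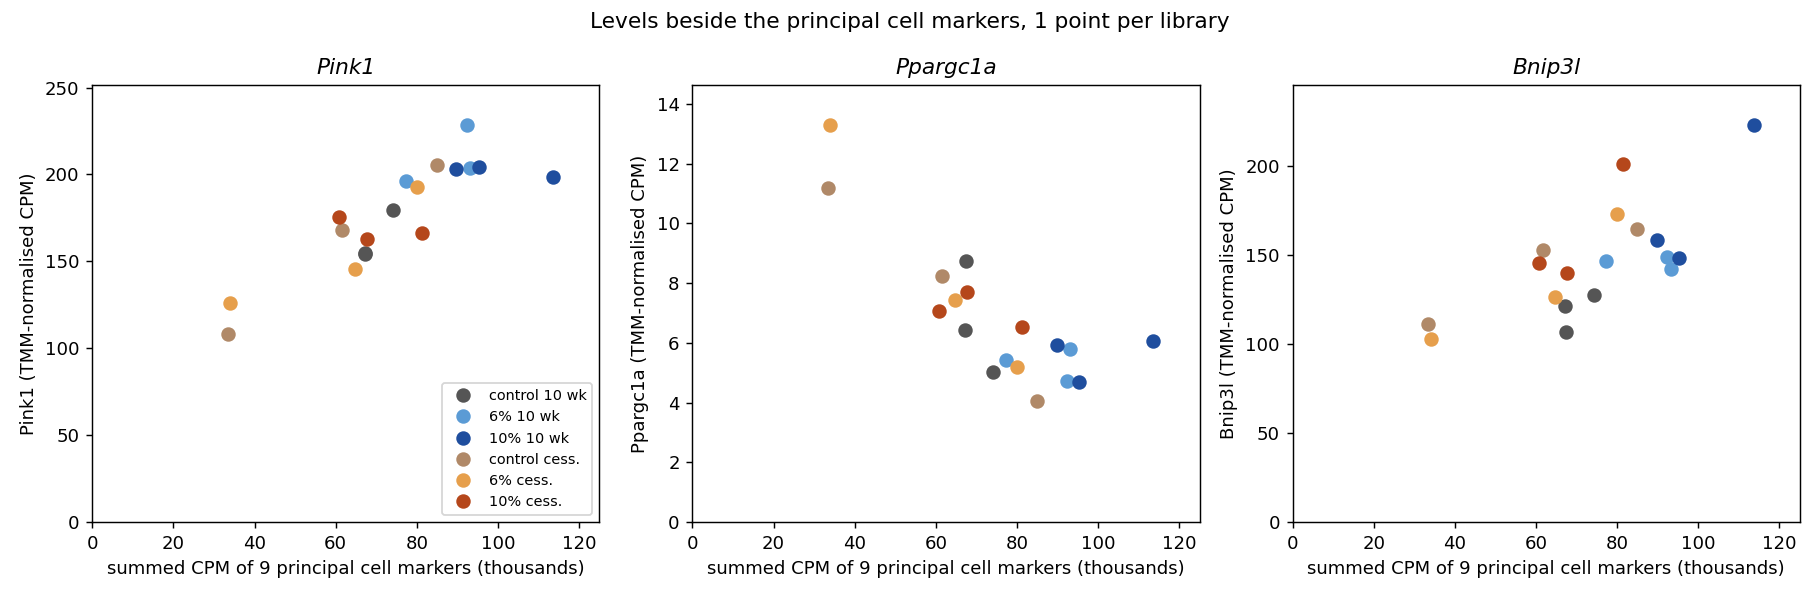
TMM-normalised CPM of Pink1, Ppargc1a and Bnip3l (vertical axes, from 0) against the summed CPM of 9 principal cell markers (horizontal axis), 1 point per library, coloured by group. The 2 cessation libraries at 33358 and 34008 CPM are lowest in Pink1 and highest in Ppargc1a.

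Among 13276 tested genes (mean log2 CPM 1 or higher) the gene whose levels were most like those of Bnip3l was Atg5, an autophagy gene, with r = 0.973 over 18 libraries, followed by Klhl9 (0.963) and Ndfip1 (0.958). Those most like Mff were Ap3s1 (0.97), Cul1 (0.97) and Med30 (0.967), most like Dnm1l were Dhx9 (0.949), Dcaf17 (0.945) and Kdm7a (0.942), and most like Tfam were Pnrc2 (0.941), Tgfbr1 (0.913) and Vps29 (0.906). For Pink1 they were Acad8 (0.92), Notch2 (0.906) and Edem3 (0.906), and for Ppargc1a Pik3r1 (0.92), Pawr (0.915) and Fmo5 (0.914). For the fusion genes they were Wdtc1 (0.959), Ahdc1 (0.942) and Sphk2 (0.94) with Mfn2, Ywhaz (0.936), Hnrnpk (0.91) and Srpr (0.909) with Mfn1, and Xk (0.946), Dnajb14 (0.903) and Myo6 (0.902) with Opa1. Fis1 was least closely followed, by Get3 (0.889), Plin3 (0.88) and Wdr74 (0.878). No gene of the 10 was among the 3 nearest of another.

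Within a library, the mean log2 level of the 3 fusion genes minus that of the 3 fission genes was -0.02 ± 0.07 (SD, n = 3) in controls of 10 weeks, -0.17 ± 0.02 with 6% EtOH and -0.33 ± 0.19 with 10%. The 9 values of 10 weeks did not overlap between controls and either ethanol group. How often other sets of genes would separate so was not counted. Of single tested genes 18.7% did with 6% and 30.7% with 10%. The 10% values were -0.26, -0.18 and -0.54 in replicates 1 to 3. By log2 fold change with 10% EtOH, Mfn2 (-0.35), Dnm1l (0.38) and Mff (0.45) went with it and none passed. Mfn1 (0.03) and Opa1 (0.02) hardly differed, and Fis1 (-0.17) went the other way. In cessation controls fusion minus fission was -0.31 ± 0.07, lower than in every control of 10 weeks. It was -0.20 ± 0.16 after 6% and -0.39 ± 0.22 after 10%, which overlapped their controls. The log2 ratio of Mfn1 to Mfn2 was -0.40 ± 0.06, -0.20 ± 0.10 and -0.01 ± 0.23 in the same order at 10 weeks and -0.14 ± 0.22, -0.14 ± 0.05 and -0.07 ± 0.09 after cessation. These ratios describe the levels above, chosen with them known, and were not tested.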

How the data were processed

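Total RNA of 18 caput epididymis libraries had been sequenced on an Illumina HiSeq, per the labels' protocols. Trimmomatic, STAR, featureCounts and build GRCm39 are named in the submitters' processing notes. Neither tool versions nor the annotation release nor whether counting used strand or multiply mapping reads is given in the sources used here. The authors deposited 1 table of raw counts per gene for each library, with no normalization. Without a known strand setting, reads of Mfn1 and Gnb4, whose ends overlap, of Mff and the overlapping noncoding genes C430014B12Rik and Gm39668, and of Bnip3l and its pseudogene Bnip3l-ps may not be separated.

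Counts were joined by symbol, and groups were taken from the labels. Replicates were numbered by accession order, which pairs nothing. Genes passing edgeR's filterByExpr (minimum count 10, total 15) were tested, which kept at least 99.7% of counts in every library. The test was edgeR 4.0.16's quasi-likelihood test in R 4.3.3, with TMM scaling (factors 0.914 to 1.20), 1 term per group over all 18 libraries and Benjamini-Hochberg adjustment over 18618 genes, two-sided at 0.05. It gave 4 ethanol comparisons, 2 interactions, the times compared, and any difference among groups. SEs are the fold change over the square root of F, and 95% intervals use these SEs and a normal quantile. The steps were tested on simulated data. Alternatives were RLE scaling, no filter, CPM of at least 1 in at least 3 libraries, DESeq2 1.42.0, limma 3.58.1 voom, only the 9 libraries of a time, removal of length and GC trends (natural splines, 5 df, from GENCODE M21 transcripts, 98.5% of tested genes matched), and each library left out. Correlations with markers and with the mitochondrial share used 100000 permutations of all 18 libraries, without regard to group.

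The 10 genes, the pathway and marker lists and the tests were chosen with earlier results of these data known. The text names all 10 genes, the 6 other pathway genes of smallest p in each ethanol, interaction and time comparison, direct partners, pathway genes called between the times and, by Pearson r of log2 CPM, the 3 genes most like each of the 10. 1 pathway gene that the rule names is not reported here. Promoter sequences are from RefSeq on GRCm38.p6, another build than the counts.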

Additional observations from a re-analysis of the deposited data

How the results depend on the processing

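Of 1270 alternative values of the 10 genes' log2 fold changes, 18 passed the threshold where the value of all 18 libraries had not, and 9 changed sign with a move of more than 1 SE. The other 1243 stayed on their side of the threshold, and any change of sign among them was a move of at most 1 SE, as for Opa1 with 10% EtOH at 10 weeks (-0.09 to 0.07). With 10% EtOH at 10 weeks the number of the 10 genes that passed was 1 with no filter on low counts (Bnip3l, 0.59, edgeR adjusted p = 0.0393), 2 in the 9 libraries of 10 weeks, 2 in those 9 with trends removed, and 0 to 3 when single libraries were left out of the 9, the latter settings chosen after the 9-library result was seen. With no filter edgeR called 44 genes with 6% EtOH at 10 weeks, 51 and 407 with 6% and 10% after cessation, 88 and 385 in the interactions and 736 with 10% EtOH at 10 weeks, where DESeq2 called 74. In that comparison edgeR called 1059 in the 9 libraries and 0 to 1569 in those without single libraries. Without control cessation replicate 2 edgeR called 191 genes with 10% EtOH after cessation and 2000 over all 6 groups. The number that passed between the times was 0 to 3 with single libraries left out.

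The 9 sign changes were in the ethanol comparisons after cessation, where leaving out single libraries gave these ranges of log2 fold changes. With 6% EtOH they were -0.27 to 0.16 for Pink1 (above 0 without control replicate 2), -0.32 to 0.50 for Ppargc1a (below 0 without 6% replicate 1), and -0.24 to 0.15 for Mff and -0.14 to 0.10 for Tfam (both below 0 without 6% replicate 3). With 10% EtOH they were -0.14 to 0.29 for Pink1 and -0.45 to 0.21 for Ppargc1a (both changed sign without control replicate 3) and -0.085 to 0.12 for Mfn1 (below 0 without 10% replicate 1). Without both libraries of lowest principal cell markers, an alternative chosen after seeing the data, Pink1 was at -0.15 and Ppargc1a at 0.21 with 10% EtOH. The cause was not tested. Between the times edgeR called 3335 genes, 466 without both those libraries, and 850 to 5811 with single libraries left out. Over all 6 groups it called 55, DESeq2 1898, limma voom 17, and edgeR with no filter 3632. No paired analysis was possible because the replicate numbers come from the order of deposit. Ppargc1a, with 55 to 191 counts per library, had the largest SE of the 10.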
